A study of Mus musculus with 7 samples.

Results

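In the embryonic mouse pancreas, 9 genes of retinoic acid metabolism and signalling were followed, out of 27138 features in the table. They were chosen by symbol: the retinaldehyde dehydrogenases Aldh1a1, Aldh1a2 and Aldh1a3, the retinol dehydrogenase Rdh10, the carrier Rbp4 with its receptor Stra6, the binding protein Crabp1, the breakdown enzyme Cyp26b1 and the nuclear receptor Rarb. Each symbol matched 1 Ensembl gene identifier, and all 9 genes had enough counts to be tested. They are protein coding, and lie on chromosome 9 (Aldh1a2, Stra6 and Crabp1), 19 (Aldh1a1 and Rbp4), 1 (Rdh10), 6 (Cyp26b1), 7 (Aldh1a3) and 14 (Rarb). Polyadenylated RNA was sequenced from E15.5 pancreas of 4 WT and 3 cKO embryos, 1 library per animal. The gene under study was 2610035D17Rik, the mouse counterpart of the long non-coding RNA LINC00673, and both groups were homozygous for its floxed allele (mLINC00673 fl/fl). The cKO embryos carried Pdx1Cre in addition, and Pdx1-Cre acts in the pancreatic epithelium but not in the other cells of the organ. WT embryos had no Cre, so the deletion and the presence of Cre cannot be told apart. The comparison asked how transcription in the developing pancreas differed once the RNA was deleted.

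Retinoic acid is made from vitamin A in a pair of oxidation steps. Retinol travels in blood bound to Rbp4 and enters some cells through Stra6, Rdh10 oxidises it to retinaldehyde, and an Aldh1a enzyme oxidises retinaldehyde to retinoic acid. Inside cells the acid is bound by Crabp proteins, broken down by Cyp26 enzymes, or bound by the RAR receptors, which pair with RXR receptors on DNA and switch on target genes. In the early embryo, retinoic acid from the mesoderm is required for the pancreas to be specified, and later it bears on endocrine differentiation. Aldh1a2 is known for its expression in mesoderm and mesothelium, and Aldh1a1 and Aldh1a3 for expression in epithelia.

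Library totals ranged from 14883918 to 17767373 counts. The targeted gene 2610035D17Rik had 9.07, 8.75, 7.92 and 8.82 CPM (counts scaled by library total and TMM factor to a common size) in WT replicates 1 to 4 and 2.01, 3.37 and 2.26 CPM in cKO replicates 1 to 3, so every cKO library was below every WT library. Its log2 fold change was −1.76 (SE 0.215), with an adjusted p of 0.0902 by edgeR and 1.25e-09 by DESeq2. All 10 pancreas markers, among them Pdx1, Ptf1a, Ins2 and Cpa1, were detected in every library. A dissected pancreas also holds other tissue, and 2 marker sums differed widely between libraries. WT replicate 4 and cKO replicate 1 held 986 and 1662 CPM of the 12 liver genes summed, which came to 76.2 to 145 CPM in the other 5 libraries, and all 12 were higher in the cKO fit, none past the threshold. The 10 neuron genes summed to 932, 745 and 1208 CPM in WT replicate 1, WT replicate 3 and cKO replicate 1 but to 158 to 421 CPM in the other 4. The header of the column for WT replicate 4 carries a different number beside the group name than the other 6 columns, and no source used here says what it means.

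Per length of exon, Rbp4 was the most abundant of the 9 transcripts in WT and Aldh1a3 the least. Levels between genes are compared here as CPM per kb of annotated exon, and were measured in the whole organ, where fewer cells of a type and less RNA per cell cannot be told apart. Rbp4 stood at 69.2 ± 8.70 CPM per kb (SD, n = 4), followed by Aldh1a1 at 15.7 ± 3.71, Crabp1 at 13.7 ± 2.40 and Aldh1a2 at 13.2 ± 1.45 CPM per kb. The WT ranges of these last 3 genes overlapped from one to the next, whereas Rbp4 lay above them in all 4 WT libraries. Rdh10 followed at 5.69 ± 0.671 CPM per kb and Stra6 at 2.42 ± 1.26 CPM per kb, and neither range overlapped that of the gene above it. Cyp26b1 at 0.936 ± 0.130, Rarb at 0.901 ± 0.0589 and Aldh1a3 at 0.673 ± 0.272 CPM per kb formed the low end, with overlapping ranges, and the lowest Stra6 library reached into that of Cyp26b1. With the length of the longest transcript in place of all exons, Aldh1a1 stood at 32.9 CPM per kb, Stra6 at 4.59 and Rarb at 1.53. The order was then the same apart from Rarb, which stood above Cyp26b1. The overlaps of ranges given above are those of all exons and need not hold by the longest transcript. By that length Stra6 (SD 2.39) was within its SD of Rdh10 at 6.595, and Aldh1a1 (SD 7.76) was far above Crabp1 at 13.7.

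**Figure D1:**
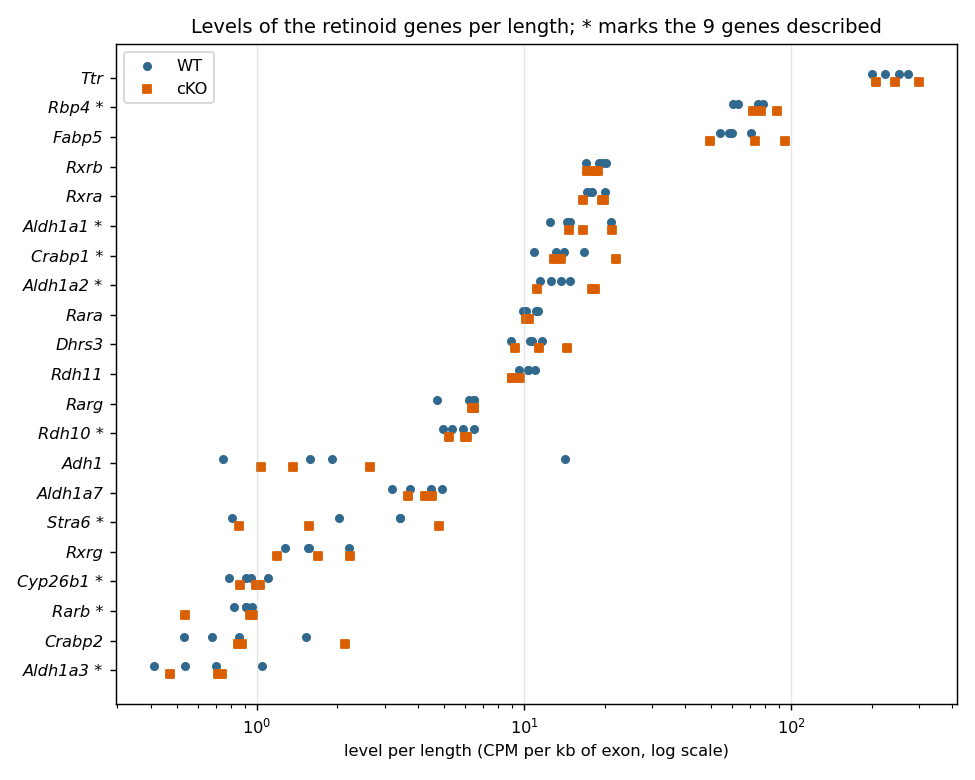
Level per length (CPM per kb of annotated exon, log scale) of the 9 genes, marked with an asterisk, and of the other retinoid genes for synthesis, binding and reception named in the text, 1 point per library. Rbp4 lies above the other 8 marked genes in every WT library, and Adh1 has 1 WT library far to the right of the rest.

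None of the 9 genes passed a test of cKO against WT. With edgeR's quasi-likelihood test and Benjamini-Hochberg adjustment over 16910 features, 0 of 9 passed an adjusted p of 0.05, beside 0.00591% of all features tested (1 feature). DESeq2 also called 0 of 9, beside 0.0769% of all features, and limma-voom called 0 of 9, beside 1 feature of all 16910. By edgeR 0 of 9 had an unadjusted p under 0.05, beside 1.38% of all features. The cKO and WT values overlapped for all 9 genes, where 2.72% of all features did not overlap and 1.3% had every cKO library above every WT library. In the fit, 6 of the 9 were higher and 3 lower in cKO, with a median log2 fold change of 0.04, beside −0.01 over all features. Exact two-sided permutation tests of log2 CPM, with 35 possible divisions of the libraries, gave p between 0.257 (Rbp4) and 1.0 (Aldh1a3), where the smallest p this design allows is 0.0286. These p values do not show that the genes were alike, and the 95% interval of each gene gives the range of differences that the fit allowed.

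**Figure D2:**
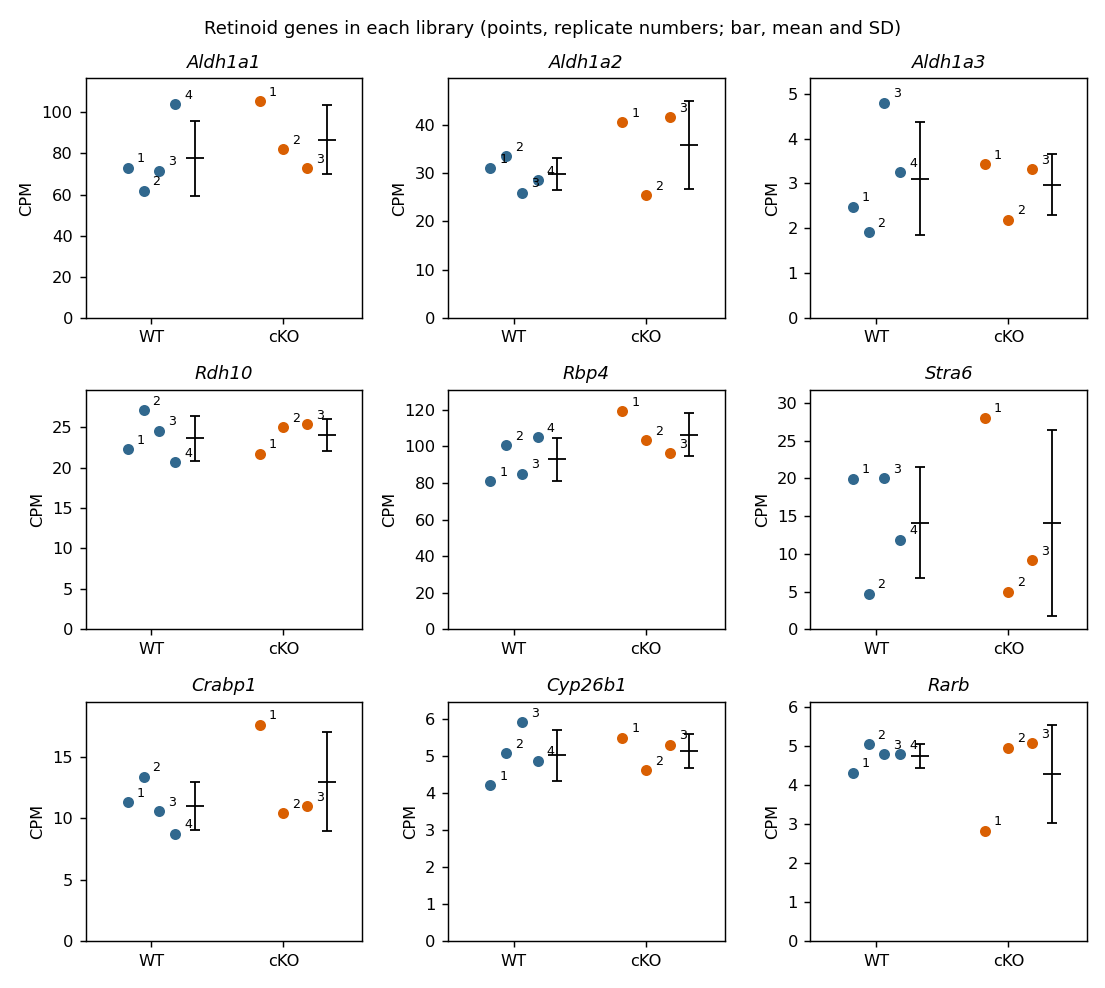
CPM of the 9 genes in each library, with replicate numbers beside the points and the mean and SD of each group beside them. The groups overlap in every panel; Stra6 spreads from 4.70 to 28.0 CPM, and Rarb has 1 low library, cKO replicate 1.

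Rdh10, which catalyses the first oxidation step, spanned 1.31-fold over the 7 libraries, the least of the 9 genes. It had 22.3, 27.1, 24.6 and 20.7 CPM in WT replicates 1 to 4 and 21.7, 25.0 and 25.4 CPM in cKO replicates 1 to 3. All cKO values lay within the WT range. Its log2 fold change was 0.02 (SE 0.119), and the 95% interval ran from a fold of 0.843 to 1.225.

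Aldh1a1, which makes retinoic acid and also oxidises other aldehydes, had 73.1, 61.8, 71.5 and 104 CPM in WT and 106, 82.0 and 72.8 CPM in cKO. WT replicate 4 and cKO replicate 1 were the high libraries, and the remaining 5 lay between 61.8 and 82.0 CPM. The log2 fold change was 0.16 (SE 0.193, 95% interval −0.28 to 0.61), and it was 0.004 without cKO replicate 1 and 0.327 without WT replicate 4. The closely related gene Aldh1a7 lies on the same chromosome, and 3.06% of the 50-base stretches in Aldh1a1 transcripts also occur in Aldh1a7, so reads could be split between them. Aldh1a7 was far lower, at 8.43 ± 1.59 CPM in the WT libraries (SD, n = 4) against 8.58 ± 0.878 in the cKO libraries (SD, n = 3), a log2 fold change of 0.03.

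Aldh1a2, the main retinoic acid producing enzyme of embryonic mesoderm, had 31.1, 33.6, 25.96 and 28.6 CPM in WT and 40.6, 25.4 and 41.7 CPM in cKO. cKO replicates 1 and 3 were above every WT library, while cKO replicate 2 was the lowest of all 7. The fitted log2 fold change of 0.27, the highest of the 9 genes, had an SE of 0.175 and a 95% interval of −0.13 to 0.66 and did not pass (edgeR adjusted p = 0.9999). It was 0.4595 without cKO replicate 2 and 0.1465 without cKO replicate 3. The 8 mesothelium markers summed to 150, 152, 184 and 197 CPM in WT and 207, 138 and 211 CPM in cKO. In this sum cKO replicates 1 and 3 were highest and cKO replicate 2 lowest, but the single markers differed. The lowest library was cKO replicate 2 for Wt1, Bnc1 and Rspo1, and WT replicate 2 for Upk3b, Upk1b and Msln. It was WT replicate 1 for Muc16 and cKO replicate 1 for Lrrn4. Within WT the sum was higher in replicates 3 and 4, where Aldh1a2 was lower. All 8 of these markers were detected, 5 were higher and 3 lower in the fit, and their part in the Aldh1a2 values was not tested. The sum of the 10 mesenchyme markers varied less, from 7103 to 8876 CPM in WT and 7201 to 8082 CPM in cKO.

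Aldh1a3, the other retinaldehyde dehydrogenase, had low counts that still passed the filter. It had 46, 32, 83 and 46 counts in WT and 58, 37 and 60 counts in cKO, or 2.48, 1.91, 4.80 and 3.25 CPM and 3.42, 2.19 and 3.31 CPM. WT replicate 3 was the highest library and WT replicate 2 the lowest. On the log2 scale the fold change was −0.06, with a 95% interval from −0.83 to 0.70. It changed sign with single libraries, from −0.24 without WT replicate 2 to 0.23 without WT replicate 3.

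Of the summed per-length level of the 3 dehydrogenases, Aldh1a1 took 52.7% ± 6.71 in WT (SD, n = 4) and 51.9% ± 7.68 in cKO (SD, n = 3). Aldh1a2 took 44.96% ± 7.10 and 46.2% ± 7.46, and Aldh1a3 2.31% ± 1.05 and 1.88% ± 0.222. Aldh1a1 led in 5 libraries and Aldh1a2 in the other 2, WT replicate 2 and cKO replicate 3. The split between Aldh1a1 and Aldh1a2 depended on the length used, since Aldh1a1 took 69.5% in WT and 68.8% in cKO by the longest transcript. By all exons the group means of each share differed by less than the SD of the WT libraries, though for Aldh1a3 by more than the cKO SD. By the longest transcript only the means were taken.

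**Figure D3:**
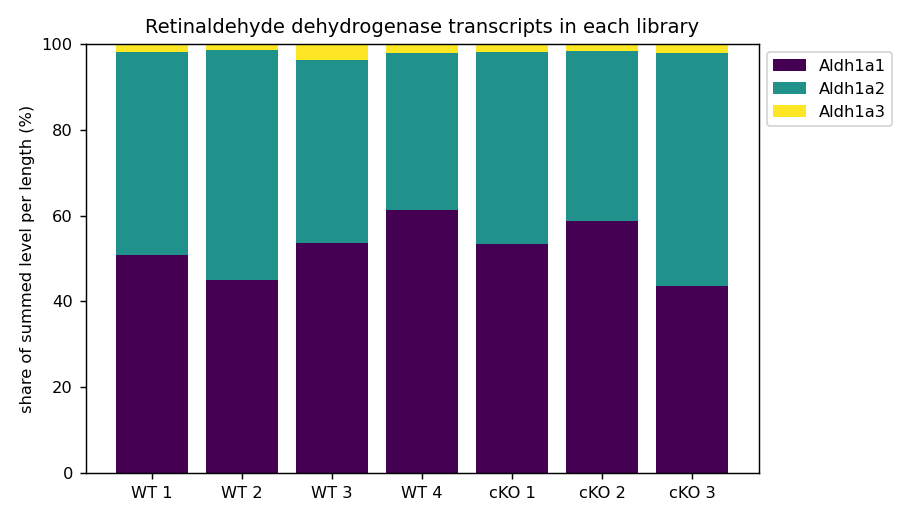
Share of the summed level per length (CPM per kb of annotated exon) taken by Aldh1a1, Aldh1a2 and Aldh1a3 in each library, as stacked bars that add to 100%. Aldh1a2 takes the larger share in WT replicate 2 (53.4%) and cKO replicate 3 (54.3%), and Aldh1a3 stays under 4% throughout.

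Among the carriers, Rbp4 delivers retinol through the blood and is secreted mainly by liver in the adult. It had 81.0, 101, 85.1 and 105 CPM in WT and 119, 104 and 96.3 CPM in cKO. cKO replicate 1 was the highest library, and cKO replicate 3 lay below WT replicates 2 and 4. In the fit the log2 fold change was 0.19 (SE 0.117, 95% interval −0.07 to 0.46), or a fold between 0.953 and 1.37. Its highest libraries, cKO replicate 1 and WT replicate 4, were also the ones highest in liver genes. Between the lowest and the highest library the liver genes differed 21.8-fold and Rbp4 1.47-fold, and the part of liver RNA in the Rbp4 values was not tested. Alb, serum albumin, had 8.58, 25.6, 9.25 and 354 CPM in WT and 688, 14.8 and 31.0 CPM in cKO. Without WT replicate 4 and cKO replicate 1, the libraries highest in liver genes, the Rbp4 log2 fold change was 0.17, and without the 3 libraries highest in neuron genes it was −0.0419.

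Stra6, the membrane receptor that takes retinol from Rbp4, varied most of the 9 genes. It had 20.0, 4.70, 20.0 and 11.9 CPM in WT and 28.0, 4.97 and 9.16 CPM in cKO, a 5.96-fold span from lowest to highest. Both groups held high and low libraries, and the group means were 14.1 ± 7.36 CPM for WT (SD, n = 4) and 14.05 ± 12.3 CPM for cKO (SD, n = 3). The log2 fold change was −0.01 with an SE of 0.730, and the 95% interval ran from a fold of 0.290 to 3.40. It was −0.99 without cKO replicate 1 and 0.38 without cKO replicate 2, so its direction rested on single libraries.

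The Stra6 values were ordered across libraries like those of the neuron markers. Th, the rate-limiting enzyme of catecholamine synthesis, had 97.4, 3.10, 67.1 and 25.3 CPM in WT and 109, 4.79 and 6.95 CPM in cKO. Dbh, which makes noradrenaline from dopamine, had 163, 1.85, 97.1 and 33.5 CPM in WT and 150, 1.18 and 5.02 CPM in cKO. WT replicate 1, WT replicate 3 and cKO replicate 1 were the 3 highest libraries for Stra6 and for 10 of 10 neuron markers. The same was true of 4 of 7 glia markers, 1 of 10 mesenchyme markers, 0 of 10 pancreas markers and 8.33% of all features tested. The neuron genes summed to 158 to 932 CPM in WT and 181 to 1208 CPM in cKO, with 3 of the 10 higher and 7 lower in the cKO fit. Their part in the Stra6 values was not tested. Without the 3 libraries highest in neuron genes (an alternative added with the data in view), the Stra6 log2 fold change was −0.22.

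**Figure D4:**
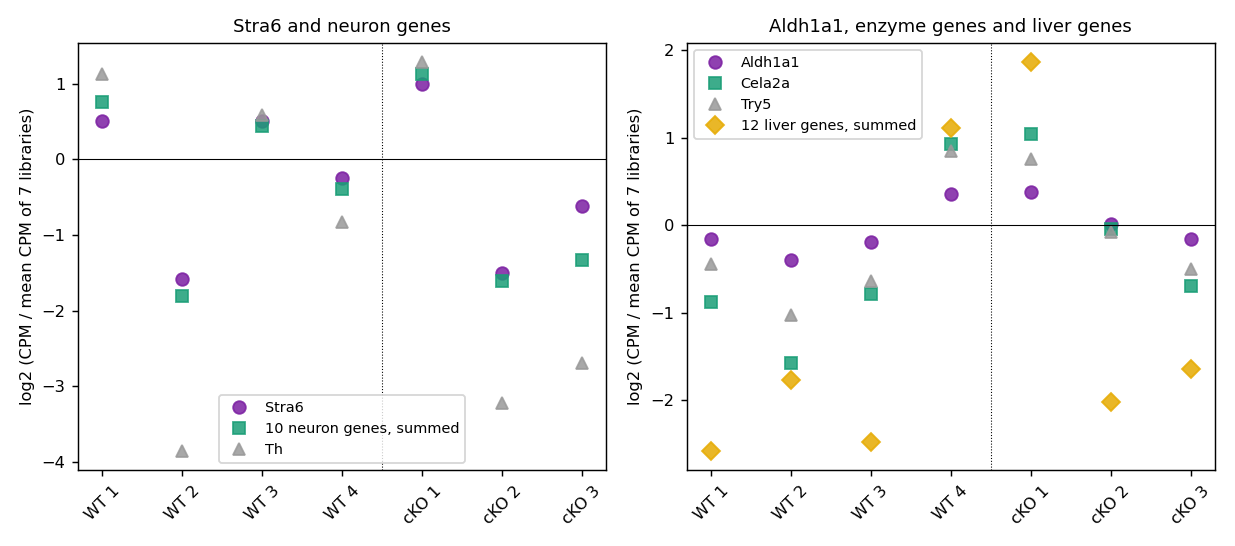
Log2 of CPM over the mean of the 7 libraries, 1 point per library. Left, Stra6, the 10 neuron genes summed and Th are all above their means in WT replicates 1 and 3 and cKO replicate 1; right, Aldh1a1, the enzyme genes Cela2a and Try5, and the 12 liver genes summed are highest in WT replicate 4 and cKO replicate 1.

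Crabp1, a cytosolic retinoic acid binding protein that is abundant in neural crest derivatives and mesenchyme, had 11.3, 13.4, 10.6 and 8.75 CPM in WT and 17.7, 10.4 and 10.98 CPM in cKO. cKO replicate 1 was the highest library, and the other 2 cKO libraries lay within the WT range. The log2 fold change of 0.24 (SE 0.218, 95% interval −0.25 to 0.73) rested on that library and was −0.04 without it.

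Cyp26b1, which oxidises retinoic acid to inactive products, had 4.21, 5.06, 5.90 and 4.87 CPM in WT and 5.49, 4.61 and 5.30 CPM in cKO, from 69 to 102 counts in each library. All cKO values lay within the WT range. Its log2 fold change was 0.04 (SE 0.183), and the 95% interval ran from a fold of 0.769 to 1.37. The related enzymes Cyp26a1 and Cyp26c1 were too low to be tested. Cyp26a1 had 0, 0, 6 and 1 counts in WT and 5, 2 and 13 counts in cKO. A count of 0 allows up to 0.162 CPM in WT replicate 1 and 0.179 CPM in WT replicate 2, from 3 counts and for counting error only. Cyp26c1 had 8 counts in all of WT and 2 in all of cKO. Cyp26b1 was therefore the only Cyp26 transcript above the filter on low counts.

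Rarb encodes retinoic acid receptor beta and is itself switched on by retinoic acid. It had 4.32, 5.06, 4.80 and 4.80 CPM in WT and 2.83, 4.97 and 5.08 CPM in cKO, or 48 to 92 counts in each library. cKO replicate 1 was lowest, and the other 2 cKO libraries lay at the upper end of WT. The log2 fold change was −0.14 (SE 0.234, 95% interval −0.67 to 0.39), and it was 0.09 without cKO replicate 1. Reads in exons shared with another gene may have been counted for Rarb or left out of its count. The settings used for counting are not given. In the annotation 38.4% of its exon bases (2020 of 5265) also lie in exons of genes on the opposite strand, mainly the topoisomerase gene Top2b, and the library kit did not keep the strand. Top2b was far more abundant, with 220, 223, 226 and 182 CPM in WT and 177, 219 and 223 CPM in cKO, and it too was lowest in cKO replicate 1. No exon of the other 8 genes overlapped an exon on the opposite strand.

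A well known retinoic acid response element lies just before the start of a Rarb transcript, and its counterpart in Cyp26a1 has the same form. Both stretches are shown with the letters searched for in capitals. Each holds the letters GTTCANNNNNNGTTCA on one of the strands. This is a direct repeat of GTTCA, a part of each of the 2 half-sites, so the capitals need not cover the whole element. The stretches are the 120 bases before the RefSeq start on GRCm38.p6, chr14:16575477-16575596 on the minus strand for Rarb and chr19:37697688-37697807 on the plus strand for Cyp26a1, written 5′ to 3′ in the direction of the gene.
Rarb: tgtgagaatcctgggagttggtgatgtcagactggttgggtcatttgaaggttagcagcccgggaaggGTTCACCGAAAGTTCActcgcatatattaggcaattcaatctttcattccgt
Cyp26a1: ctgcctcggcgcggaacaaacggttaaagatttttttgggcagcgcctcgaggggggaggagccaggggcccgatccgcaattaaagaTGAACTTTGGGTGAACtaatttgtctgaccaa
The match lay from base −52 to −37 before the start on the gene's own strand in Rarb, and from −32 to −17 on the other strand in Cyp26a1.

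The motif was found in 0.0761% of all RefSeq promoter windows (25 of 32851), each reaching from 250 bases before a start to 50 after it, on both strands. Windows were matched for 7 of the 9 genes and for 48 of 62 genes with the other pathway genes included, and Rarb and Cyp26a1 were the only ones of these with a match. Overlap of matches was allowed. The letters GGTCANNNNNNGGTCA, and the closer repeats GTTCANNNGTTCA and GGTCANNNGGTCA, were in none of these windows and in 0.10%, 0.225% and 0.067% of all windows. Repeats that pair GTTCA with GGTCA were not searched, and neither were bases outside the windows. A match is a run of letters and was not tested for binding. Of the 2 genes with the match, Rarb was measured in every library and Cyp26a1 was at or under 13 counts in each.

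Of 53 other genes of the pathway that were listed, 49 were in the table and 34 could be tested. With edgeR 0 of these 34 passed in either direction, beside 0.00591% of all features, and 0 had an unadjusted p under 0.05, beside 1.38%. DESeq2 called 0, beside 0.0769%, and limma-voom called 0, beside 1 feature of all 16910. At these shares a count of 0 among 34 says nothing particular about the pathway. In the fit 18 were higher and 16 lower, with a median log2 fold change of 0.02. The plot of fitted differences shows those named here with the 9 genes.

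**Figure D5:**
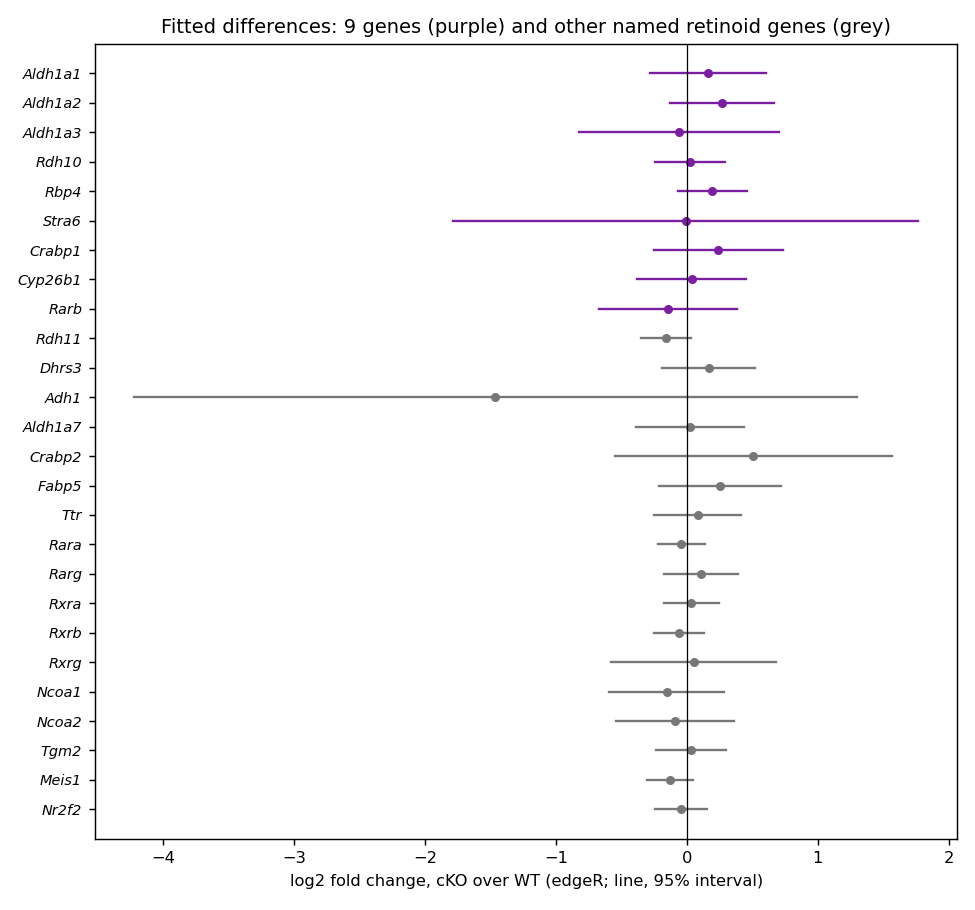
Log2 fold change of cKO over WT with its 95% interval for the 9 genes (purple) and the other retinoid genes named in the text (grey), from the edgeR fit. Every interval spans 0, and those of Adh1 and Stra6 are the widest.

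Of 11 tested synthesis and storage genes, 8 were higher and 3 lower in the fit. Rdh11, a retinal reductase, had the smallest unadjusted p, at 35.6 ± 2.01 CPM for WT (SD, n = 4) against 31.8 ± 1.33 CPM for cKO (SD, n = 3). Its log2 fold change was −0.16 (SE 0.0848, edgeR adjusted p = 0.9999), and the groups overlapped. Dhrs3, which turns retinaldehyde back into retinol, had 30.6 ± 3.37 and 34.3 ± 7.74 CPM and a log2 fold change of 0.17. Adh1, an alcohol dehydrogenase that oxidises retinol, had 79, 28, 550 and 50 counts in WT and 100, 39 and 55 counts in cKO. WT replicate 3 held most of the WT counts, and the fitted log2 fold change of −1.46 (SE 1.13) was 0.25 without that library. Adh7, a retinol-oxidising alcohol dehydrogenase of the stomach lining, lies on the same chromosome and had 42 counts in WT replicate 3 and 0 to 5 counts in each other library.

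Of 6 tested binding and transport genes, 5 were higher and 1 lower in the fit. Fabp5, a fatty acid binding protein that also carries retinoic acid, had 193, 214, 209 and 253 CPM in WT and 339, 262 and 177 CPM in cKO. cKO replicates 1 and 2 were above every WT library, and cKO replicate 3 was the lowest of all 7. Its log2 fold change was 0.25 (SE 0.202), and 0.02 without cKO replicate 1. Per length, Crabp1 was well above its relative Crabp2, which had 0.899 ± 0.441 CPM per kb in WT (SD, n = 4). Ttr, the partner of Rbp4 in plasma and also a gene of islet alpha cells, stood at 282 ± 37.8 CPM (WT) and 298 ± 55.9 CPM (cKO), a log2 fold change of 0.08.

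Among the nuclear receptors, Rarb was the least abundant per length of the 6 measured in WT. Rxrb had 19.0 ± 1.38, Rxra 18.2 ± 1.24, Rara 10.6 ± 0.657, Rarg 5.98 ± 0.859 and Rxrg 1.65 ± 0.399 CPM per kb (SD, n = 4). By this length of all exons the WT range of Rarb did not reach that of Rxrg. By the longest transcript Rarb stood at 1.53 ± 0.0998 and Rxrg at 1.79 ± 0.435 CPM per kb, apart by less than the SD of Rxrg. The Rarb level is also uncertain because reads from exon bases shared with Top2b may have been counted for Rarb or left out. Its level per length could then be too high or too low, which was not tested. Of the 5 receptors other than Rarb, 3 were higher and 2 lower in the fit, with log2 fold changes from −0.06 (Rxrb) to 0.11 (Rarg). The 95% intervals were narrowest for Rara, from a fold of 0.857 to 1.10, and for Rxrb, from 0.841 to 1.09.

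All 6 coregulators of these receptors on the list, the coactivator genes Ncoa1 and Ncoa2 among them, were lower in the fit, none past the threshold. Ncoa1 had 47.1, 58.0, 56.4 and 47.9 CPM in WT and 31.7, 53.4 and 56.1 CPM in cKO, so that cKO replicate 1 alone lay below WT. Its log2 fold change of −0.15 was 0.07 without that library, and that of Ncoa2 was −0.09 with it and 0.12 without. Of 6 tested target genes, 2 were higher and 4 lower. Meis1, a homeobox partner of Hox proteins, averaged 80.0 ± 5.19 CPM for WT against 73.2 ± 2.17 CPM for cKO, with a fitted difference of −0.13 on the log2 scale (SE 0.0781). The orphan receptor gene Nr2f2 averaged 83.9 ± 8.04 and 81.4 ± 1.32 CPM, with a difference of −0.04 (SE 0.0887). Tgm2, a transglutaminase induced by retinoic acid, had 99.6 ± 8.03 and 102 ± 16.1 CPM.

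Among 10305 or 10306 other named genes above 10 CPM, the ones most like each of the 9 over the 7 libraries were sought by Pearson correlation of log2 CPM, as a description. For Aldh1a1 they were Atp6v1g1, a proton pump subunit (r = 0.997), and the digestive enzyme genes Try5 (0.997) and Cela2a (0.996). Cela2a had 480, 298, 511 and 1678 CPM in WT and 1826, 855 and 544 CPM in cKO, high like Aldh1a1 in WT replicate 4 and cKO replicate 1. Try5 belongs to the trypsinogen family, whose near-identical copies can share reads. The liver genes were also highest in those 2 libraries, and their part in the Aldh1a1 values was not tested.

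For Stra6 the most alike were Cacnb3, a subunit of voltage-gated calcium channels (r = 0.994), Podxl2 (0.991) and Prmt2 (0.991). For Rbp4 they were the elongation factor Eef1a1 (0.991), the ribosomal protein gene Rpl5 (0.987) and the proteasome subunit gene Psmb5 (0.987). For Rarb they were Entpd5 (0.990), the transcription factor gene Arnt (0.988) and Pcnx3 (0.987), all lowest in cKO replicate 1. Aldh1a2 was most like Cdkn3 (0.971), Aldh1a3 like Pcsk6 (0.966), followed by Bmp6 (0.962) and the collagen gene Col1a1 (0.961), Rdh10 like Cnot9 (0.984), Crabp1 like Mrps18c (0.974) and Cyp26b1 like Commd10 (0.975). In all, 154 genes exceeded 0.95 for Stra6, 82 for Rarb, 74 for Aldh1a1 and 58 for Rbp4, so those named for them were a few of many. Only 3 each did so for Aldh1a2 and Cyp26b1. With 7 libraries and 10305 or 10306 genes compared, a few values this high can arise by chance.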

How the data were processed

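What the authors deposited were raw counts of reads, whole numbers with no normalization, in a single table of 7 libraries. The submitters' processing notes name HISAT2, StringTie, featureCounts and mm39 but give no roles or settings, and the kit in the labels' protocols does not mark the strand. Each column's group and replicate number gave its sample. No 2 libraries agreed within sampling noise (chi-square divided by its degrees of freedom, 11.1 to 50.8).

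Counts were filtered with filterByExpr (16910 of 27138 features left), scaled with TMM factors and tested with edgeR 4.0.16 in R 4.3.3 (robust quasi-likelihood, the group as the only term, Benjamini-Hochberg adjustment). SEs came from the coefficient and the F statistic. Log2 CPM used a prior count of 2. DESeq2 1.42.0, limma-voom (limma 3.58.1), 2 other scalings, 2 other filters, estimation that is not robust, a replicate block and leaving out libraries were the alternatives. Names and exon lengths came from GENCODE M21 on GRCm38, another build than mm39, so gene coordinates are not given. Promoter windows are RefSeq's on GRCm38.p6.

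The members, the lists and the rule for named genes (all 9 members, the 2 genes of smallest p in each pathway list, where the rule allowed up to 4, those with close copies, and the 3 most alike genes for each member) were chosen with earlier results of these data known. Dhrs3, Adh7, Cyp26a1, Cyp26c1, Crabp2, Ttr, Tgm2, Top2b, the receptors set beside Rarb and single marker genes were named after their values were seen. Each replicate was a separate animal. Values of 2 pathway genes are left out.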

Additional observations from a re-analysis of the deposited data

Results flagged for a closer look

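Among 48 retinoid genes checked in the 4 WT libraries, 3 had a value far from the other WT libraries by Dixon's gap test, where chance flags about 1 in 20 groups. Adh1 had 31.8 CPM in WT replicate 3, where the next highest WT library had 4.26 CPM. Adh7 had 2.43 CPM in the same library, where the next highest had 0.298 CPM. The stomach and intestine markers summed to 20.9 CPM in WT replicate 3, within the 18.6 to 32.1 CPM of the WT group. Most of that sum was Vil1, at 18.6 CPM. The stomach gene Gkn1 had 3 counts there and 0 in the other 6 libraries, and Cdx2 was highest there, at 8 counts. Muc5ac had 0 counts there, and Sox2, at 1.68 CPM, was lower than in WT replicate 1 and cKO replicate 1 (2.27 and 2.30 CPM). The part of stomach tissue in the Adh1 and Adh7 values was not tested. Rarg had 20.1 CPM in WT replicate 2, below the 26.4 CPM of the next WT library. The 3 cKO libraries are too few for this test.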

How the results depend on the processing

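Under 17 alternatives, 2 of them chosen after the data were seen, 0 of 9 retinoid genes and 0 other pathway genes were called, and the lowest adjusted p of the 9 genes was 0.966. The number of all features called, 1 in the report, was 0 with DESeq2 size factors, library totals, a filter at 1 CPM or estimation that is not robust. It was 1 with limma-voom, 4 with no filter and 13 with DESeq2. It was 0 to 3 without single libraries and 5 without the 3 libraries highest in neuron genes. With the replicate number as a block over 3 WT and 3 cKO libraries it was 13. Same-numbered libraries deviated together in 2 of 3 pairs (correlations 0.381, 0.417 and −0.037), and those of unlike number correlated from −0.476 to 0.25. Whether the numbers pair libraries was left undecided, and the main fit did not pair them.

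Without single libraries, log2 fold changes that changed sign ranged from −0.237 to 0.229 for Aldh1a3, −0.0414 to 0.0954 for Rdh10, −0.995 to 0.379 for Stra6, −0.039 to 0.367 for Crabp1, −0.0399 to 0.124 for Cyp26b1, −0.282 to 0.0881 for Rarb, −1.95 to 0.248 for Adh1, −0.30 to 0.0696 for Ncoa1, −0.281 to 0.116 for Ncoa2 and −0.0919 to 0.0131 for Nr2f2. Aldh1a3 was also 0.0006 with limma-voom and 0.0214 with the replicate block, and Rdh10 −0.0413 with the block. Without WT replicate 4 and cKO replicate 1, Crabp1 was −0.137, Cyp26b1 −0.027, Rarb 0.0892, Ncoa1 0.0256 and Ncoa2 0.0365. Without the 3 neuron-rich libraries, Aldh1a1 was −0.0979, Aldh1a3 0.103, Rbp4 −0.0419, Crabp1 −0.0533, Cyp26b1 −0.003, Rarb 0.0261, Adh1 0.0507, Fabp5 −0.0921, Ncoa1 0.0474, Ncoa2 0.127 and Nr2f2 0.0775. None of these passed a threshold, and the cause was not tested. Aldh1a3, Cyp26b1 and Rarb had 32 to 102 counts a library, and the part of depth in their errors was not tested.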
